A study of Mus musculus with 6 samples.

Results

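The 10 genes described here encode members of the BCL2 family, the proteins that decide whether a cell's mitochondria release their death signals. They were taken by gene symbol from a table of 24421 gene rows, and all 10 symbols had a row: the pro-survival genes Bcl2a1b, Bcl2a1c, Mcl1, Bcl2 and Bcl2l1, the BH3-only genes Bcl2l11, Bbc3 and Pmaip1, and the effector genes Bax and Bak1. Messenger RNA came from monocytes, circulating phagocytes made in the marrow, which were sorted from the bone marrow of B6 mice. The 3 GM-CSF libraries came from monocytes given 5 ng of GM-CSF, the growth factor granulocyte-macrophage colony-stimulating factor, for 3 h (no volume is stated), and there were 3 control libraries. The labels name no other agent, allele or age for either group. They call the control cells freshly isolated in one place and describe medium with or without GM-CSF in another. If controls were not cultured, time in culture cannot be told apart from GM-CSF in anything that follows. The source of each replicate is not stated, be it 1 mouse, a pool or 1 culture. The p-values therefore rest on library-to-library spread alone, which may be technical.

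Apoptosis through the mitochondria is carried out by BAX and BAK, which form pores in the outer mitochondrial membrane. Pro-survival proteins such as MCL1, BCL2, BCL-XL (from Bcl2l1) and A1 (from the Bcl2a1 genes) hold BAX and BAK in check. BH3-only proteins such as BIM (from Bcl2l11), PUMA (from Bbc3) and NOXA (from Pmaip1) bind the pro-survival proteins and set the effectors free. Myeloid cells are short-lived unless growth factors sustain them, and MCL1 and A1 are known for their part in the survival of granulocytes. Several of these proteins are also controlled after transcription, which RNA counts do not show.

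Gene counts ran from 16643228 to 25232956 reads per library. Libraries of different groups correlated at 0.883 to 0.897 (Pearson, log2 scale, across genes, which are not independent replicates), and controls with each other at 0.992. GM-CSF replicate 3 correlated with the other GM-CSF libraries at 0.980 and 0.983, less than they did with each other. The monocyte markers Csf1r, Ly6c2 and Ccr2 had mean levels of 1450, 4080 and 1877 CPM (counts scaled to 1e6 gene reads per library) in control libraries, and none of 10 monocyte markers was at 0. Their sum was 63539 to 72980 CPM in the controls, against 29860 to 32718 CPM with GM-CSF. Markers of neutrophils and their precursors were present as well: none of 10 was under 1 CPM in every library, and their sum was 22413 to 30459 CPM in the controls, against 13576 to 17094 CPM with GM-CSF. The lower sum came from genes such as S100a8, Ngp, Camp and Ltf, which fell, while the precursor genes Elane, Mpo and Prtn3 were not called (mean CPM 2312 and 2460, 4164 and 4677, and 695 and 690 in control and GM-CSF libraries). B cell markers summed to 63.2 to 74.7 CPM in the controls, against 34.8 to 44.6 CPM with GM-CSF. T and NK cell markers summed to 177 to 234 CPM in the controls and 171 to 196 CPM with GM-CSF. Nearly all of that was Nkg7 (mean 194 and 181 CPM), and 5 of the 8 markers were under 1 CPM in every library. Basophil, mast cell and eosinophil markers summed to at most 18.7 CPM in any library, with Epx at 0. Erythroid and megakaryocyte markers summed to 2.38 to 18.6 and 1.32 to 2.20 CPM, with both haemoglobin genes at 0. Control replicate 3 stood apart there, with 235 reads of the platelet gene Pf4, 70 of Itga2b and 52 of Gp9. Neutrophils are known to use Bcl2a1 and Mcl1, and lymphocytes Bcl2. The part of such cells in the results was not tested, and in bulk RNA fewer cells of a type and less RNA per cell cannot be told apart.

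Of the 10 members, 9 were called higher with GM-CSF. One of them, Bcl2a1c, passed the filter on low counts through the GM-CSF group alone and therefore had to differ. The other 8 that rose were the pro-survival genes Bcl2a1b, Mcl1, Bcl2 and Bcl2l1, the 3 BH3-only genes and Bax. Bcl2a1b rose the most of those with reads in both groups, 77.9-fold, and Pmaip1 came next, 5.80-fold. Mcl1, Bcl2 and Bcl2l1 rose (2.42-fold, 2.15-fold and 2.01-fold), and Bbc3, Bax and Bcl2l11 rose less (1.56-fold, 1.35-fold and 1.27-fold). Bak1, the second effector, was the member with lower values in GM-CSF libraries, and it did not pass the test. Rises were tested with edgeR's quasi-likelihood test at an adjusted p under 0.05 over all 11731 genes tested, of which 64.0% were called in either direction, 32.8% higher and 31.2% lower. No member was called lower by edgeR, while 1 was at an unadjusted p under 0.05 and 1 was called lower by both DESeq2 and limma-voom, which was Bak1 each time. The median log2 fold change of the 10 members was 1.06, and that of all genes tested was 0.01. All 10 had groups that did not overlap in CPM, as did 69.5% of all genes tested. The median of the members and this count include Bcl2a1c, whose groups had to differ. The other 9 members passed the filter in all 6 libraries.

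**Figure D1:**
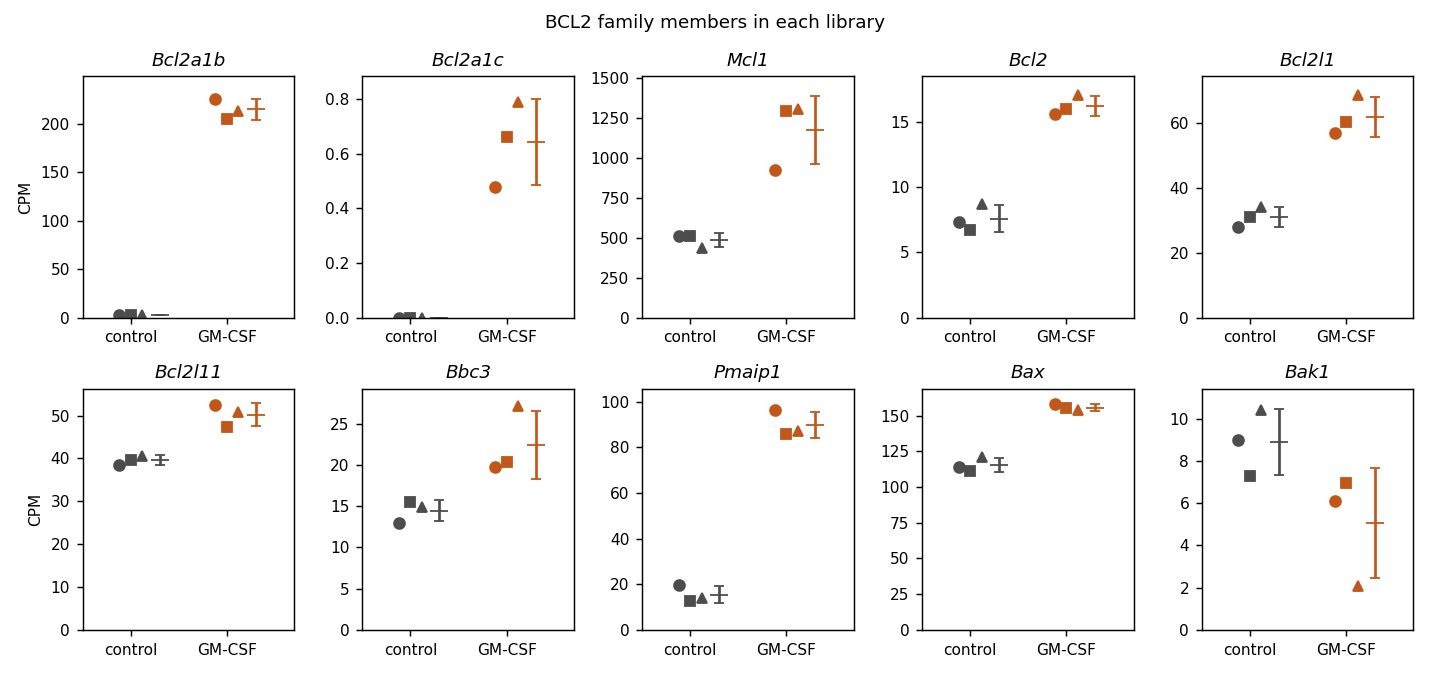
CPM of each member in each library (circles, squares and triangles are replicates 1, 2 and 3), with the mean and SD of 3 libraries beside them; each panel has its own axis from 0. GM-CSF points lie above all control points in 9 panels and below them for Bak1, where GM-CSF replicate 3 is at 2.10 CPM.

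The pro-survival genes are taken first, beginning with Bcl2a1, which the mouse carries in several near-identical copies. On GRCm38, Bcl2a1b lies on chromosome 9 at 89199209 to 89207827, near Bcl2a1d (88723285 to 88731914) and Bcl2a1a (88956900 to 88962419). Bcl2a1c lies far from them on the same chromosome, at 114330135 to 114330578, and is annotated as 1 exon. Bcl2a1a and Bcl2a1d are not among the 10 members and are given here because reads can be shared between copies. The coding sequences of Bcl2a1a, Bcl2a1b and Bcl2a1d have 516 bases each without the stop codon, and Bcl2a1b differs from Bcl2a1d at 6 of them and from Bcl2a1a at 11. The first 60 coding bases show how few letters separate the copies, with capitals where the 4 are not all the same (GENCODE M21 transcripts, build GRCm38, 5′ to 3′).
Bcl2a1b, plus strand, chr9:89199360-89199419: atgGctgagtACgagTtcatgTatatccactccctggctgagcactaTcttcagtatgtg
Bcl2a1d, minus strand, chr9:88731660-88731719: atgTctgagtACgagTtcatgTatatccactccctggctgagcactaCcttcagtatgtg
Bcl2a1a, plus strand, chr9:88957051-88957110: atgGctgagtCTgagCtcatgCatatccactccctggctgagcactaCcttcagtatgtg
Bcl2a1c, plus strand, chr9:114330156-114330215: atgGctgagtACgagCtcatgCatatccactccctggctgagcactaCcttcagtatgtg
Over whole transcripts, 14.2% of the 150-base windows of Bcl2a1b occur unchanged in another copy, as do 30.3% of those of Bcl2a1d, 28.2% of Bcl2a1a and 0 of 295 of Bcl2a1c. Read pairs wholly inside such stretches may have no unique place and be missing from the counts, so the levels of Bcl2a1a, Bcl2a1b and Bcl2a1d may be understated. A pair with 1 read outside them can still be placed, so these percentages are not shares of reads lost.

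Bcl2a1b stood at 2.42, 2.85 and 3.03 CPM in control replicates 1 to 3 and at 226, 205 and 213 CPM in GM-CSF replicates 1 to 3. The lowest GM-CSF library was thus far above the highest control. Its log2 fold change was 6.28 ± 0.11 (SE, n = 3 per group; edgeR adjusted p = 2.07e-11). Bcl2a1d, the nearest in coding sequence, averaged 2.19 ± 0.312 CPM over the controls and 165 ± 13.2 CPM over the GM-CSF group (SD, n = 3), a log2 fold change of 6.25 ± 0.12 (edgeR adjusted p = 3.87e-11). Bcl2a1a had 1.20 ± 0.246 and 40.4 ± 2.79 CPM, a log2 fold change of 5.09 ± 0.17 (edgeR adjusted p = 1.57e-09). Summed over the 4 copies before the test, so that a read moved from one copy to another cannot matter, the log2 fold change was 6.11 ± 0.10 (6.16 ± 0.752 to 421 ± 20.2 CPM).

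Bcl2a1c had 0 reads in each control library, where 3 reads, the limit that a count of 0 allows, equal 0.119 to 0.144 CPM. It had 8, 11 and 17 reads in the GM-CSF libraries, or 0.477, 0.661 and 0.792 CPM. Pooled over each group and set against 3 control reads, Bcl2a1c was at least 15.3-fold higher with GM-CSF. Since it could be tested only because of its GM-CSF reads, its p-value is not given as support, and its fitted log2 fold change depends on the prior count and is not a bound. These 36 reads were 0.107% to 0.194% of all Bcl2a1 reads in the GM-CSF libraries, and whether they came from this copy or were misplaced reads of the others was not tested. Intervals and limits from counts cover counting error only.

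Reads were split among the copies as follows. Bcl2a1a held 16.4% to 21.3% of Bcl2a1 reads in control libraries and 9.04% to 10.4% in GM-CSF libraries. Bcl2a1b held 42.6% to 49.3% and 49.7% to 52.4%, and Bcl2a1d 34.2% to 36.3% and 37.0% to 41.1%. In none of the 3 did the groups overlap, though for Bcl2a1b they nearly touched. An exact two-sided permutation test gave p = 0.1 for each, the smallest that 3 against 3 libraries allow, so no difference could be shown by it. The control shares rest on few reads, 193 for Bcl2a1b, 152 for Bcl2a1d and 83 for Bcl2a1a over the 3 libraries.

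**Figure D2:**
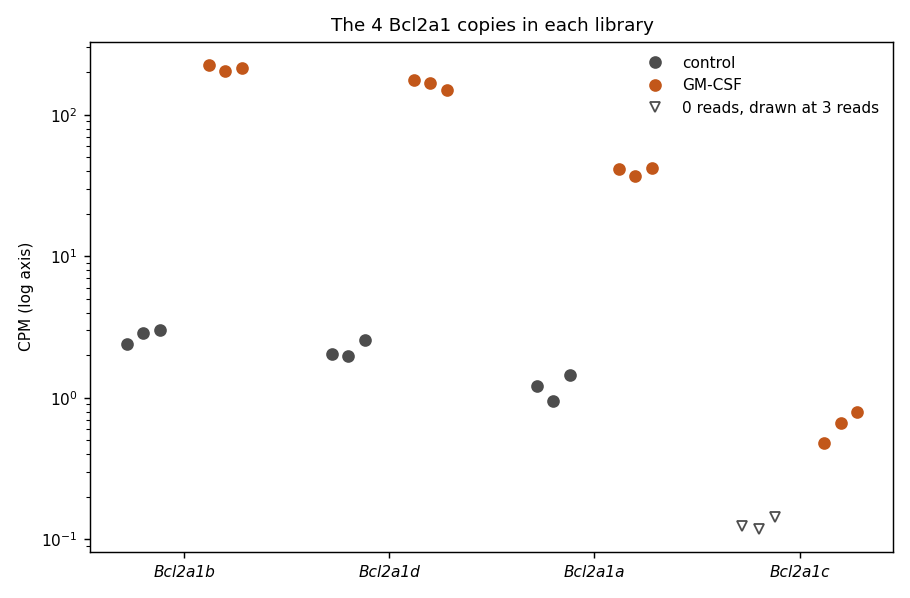
CPM of the 4 Bcl2a1 copies in each library on a log axis; grey points are control and orange points GM-CSF libraries, and open triangles mark libraries with 0 reads, drawn at 3 reads. Bcl2a1b, Bcl2a1d and Bcl2a1a lie between 0.951 and 3.03 CPM without and between 37.2 and 226 CPM with GM-CSF, and Bcl2a1c stays under 0.8 CPM in every library.

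The sequence before the start sites was examined in RefSeq's 300-base promoter windows on GRCm38.p6 (250 bases before and 50 after the start). These windows matched 9 of the 10 members by symbol and all 4 Bcl2a1 copies, and Pmaip1 had no entry. The motifs searched on both strands were AP-1 (TGANTCA), EGR (GCGNGGGCG), STAT5 (TTCNNNGAA), CRE (TGACGTCA), C/EBP (TTGCNNAA) and the NF-kB motif. The AP-1 letters occur in the windows of Bcl2a1b, Bcl2a1d and Bcl2a1a, 164, 114 and 120 bases before the RefSeq start, and not in that of Bcl2a1c. The same stretch is shown for each copy, with the motif's place in capitals.
Bcl2a1b, plus strand, chr9:89199098-89199125: gacttttaaacTGAATCAgaagaggaag
Bcl2a1d, minus strand, chr9:88731948-88731975: gacttttaaacTGAATCAgaagaggaag
Bcl2a1a, plus strand, chr9:88956789-88956816: gacttttaaacTGAATCAgaagaggaag
Bcl2a1c, plus strand, chr9:114329894-114329921: gacttttaaacTGAATGAgaagaggaag
The EGR letters, which read CGCCCACGC on the gene's strand, occur in Bcl2a1b, Bcl2a1d and Bcl2a1c and not in Bcl2a1a. Whether either motif bears on the rises of the copies was not tested.
Bcl2a1b, plus strand, chr9:89199181-89199209: tttcacagacCGCCCACGCacataagtga
Bcl2a1d, minus strand, chr9:88731870-88731898: tttcacagacCGCCCACGCacataagtga
Bcl2a1a, plus strand, chr9:88956872-88956900: tttcacagacCGCCCATGCacataagtga
Bcl2a1c, plus strand, chr9:114329977-114330005: tttcacagacCGCCCACGCacataagtga
Of 32851 promoter windows of this length, 7.81% hold the AP-1 letters and 5.55% the EGR letters. Among the other members with a window, EGR letters occur in Bcl2l11 and Bbc3 and NF-kB letters in Bcl2l1 and Bbc3. None of these matches overlaps a match of another motif. Bcl2l1, Bcl2l11 and Bbc3 have 3, 2 and 3 windows, which gives them more places for a match, and neither motif is in every window of a gene. NF-kB letters are in 4.51% of all windows. No window of a member holds the STAT5 letters, which 8.30% of all windows hold. A match is a description of the letters and not a bound site, and a missing match says only that the letters are not in this window.

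Mcl1, whose protein is short-lived and has to be made continually, had the highest mean of the members in both groups. Its gene lies on chromosome 3 at 95658788 to 95663176. It stood at 511, 509 and 436 CPM in the control libraries and at 925, 1293 and 1301 CPM in the GM-CSF libraries. GM-CSF replicate 1 was the lowest of its group and still well above every control. The log2 fold change of Mcl1 was 1.28 ± 0.13 (edgeR adjusted p = 6.30e-06).

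Bcl2 (chromosome 1, 106538178 to 106714274), the founding pro-survival gene of the family, had control values of 7.34, 6.70 and 8.71 CPM and GM-CSF values of 15.6, 16.0 and 17.0 CPM. All 3 GM-CSF libraries were close together and none reached down to the controls (log2 fold change 1.11 ± 0.14; edgeR adjusted p = 4.56e-05). Bcl2l1 (chromosome 2, 152780668 to 152831728), which encodes BCL-XL, was at 28.1, 31.0 and 34.2 CPM in control and 56.9, 60.4 and 68.9 CPM in GM-CSF libraries. Again no GM-CSF library reached down to the controls (log2 fold change 1.01 ± 0.10; edgeR adjusted p = 8.57e-06). The counts do not separate isoforms, so for Bcl2l1, Mcl1 and Bcl2l11, whose splice forms can differ in activity, the values cover all forms together.

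Of the BH3-only members, Pmaip1 moved most. It encodes NOXA, which binds MCL1 and A1 with preference, and lies on chromosome 18 at 66458533 to 66465565. Its control values were 19.8, 12.7 and 14.1 CPM, and its GM-CSF values 96.4, 85.8 and 87.0 CPM. The spread within each group was small beside the gap between them (log2 fold change 2.54 ± 0.16; edgeR adjusted p = 1.54e-07).

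Bbc3 (chromosome 7, 16308393 to 16318205) encodes PUMA, a p53 target that binds all pro-survival members. It was at 13, 15.5 and 14.9 CPM in control and at 19.8, 20.3 and 27.1 CPM in GM-CSF libraries, GM-CSF replicate 3 being the highest. Its log2 fold change was 0.64 ± 0.15 (edgeR adjusted p = 0.00281). Bcl2l11 (chromosome 2, 128126038 to 128162547) encodes BIM, the BH3-only protein best known for killing blood cells deprived of cytokine. It stood at 38.4, 39.7 and 40.7 CPM in control and at 52.5, 47.3 and 50.8 CPM in GM-CSF libraries, and rose by 0.35 ± 0.09 on the log2 scale (edgeR adjusted p = 0.00452). The 6 libraries did not overlap, though the rise was the smallest among the 9 members called.

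The effectors differed from each other. Bax (chromosome 7, 45461697 to 45466898) was at 114, 112 and 121 CPM in control and 158, 155 and 154 CPM in GM-CSF libraries, a rise of 0.44 ± 0.07 on the log2 scale (edgeR adjusted p = 2.02e-04). Bak1 (chromosome 17, 27019810 to 27029009) was much scarcer, at 9.00, 7.29 and 10.4 CPM in control and 6.08, 6.97 and 2.10 CPM in GM-CSF libraries. Every GM-CSF value of Bak1 was under every control value, but GM-CSF replicate 3, with 45 reads, lay far below the other 2 and control replicate 2 came close to GM-CSF replicate 2. Its log2 fold change was -0.83 ± 0.34 (edgeR adjusted p = 0.0534), and -0.43 without GM-CSF replicate 3 (edgeR adjusted p = 0.0635). It passed without GM-CSF replicate 1 (-1.01; edgeR adjusted p = 0.0350) or GM-CSF replicate 2 (-1.12; edgeR adjusted p = 0.0293), and under 6 other settings given in the closing part. Bak1 shares 614 of 2407 exon bases with Ggnbp1 on the opposite strand, which had 1 to 9 reads per library. The ratio of Bax to Bak1 per length was 19.4, 23.4 and 17.8 in control and 39.8, 34.0 and 112 in GM-CSF libraries.

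**Figure D3:**
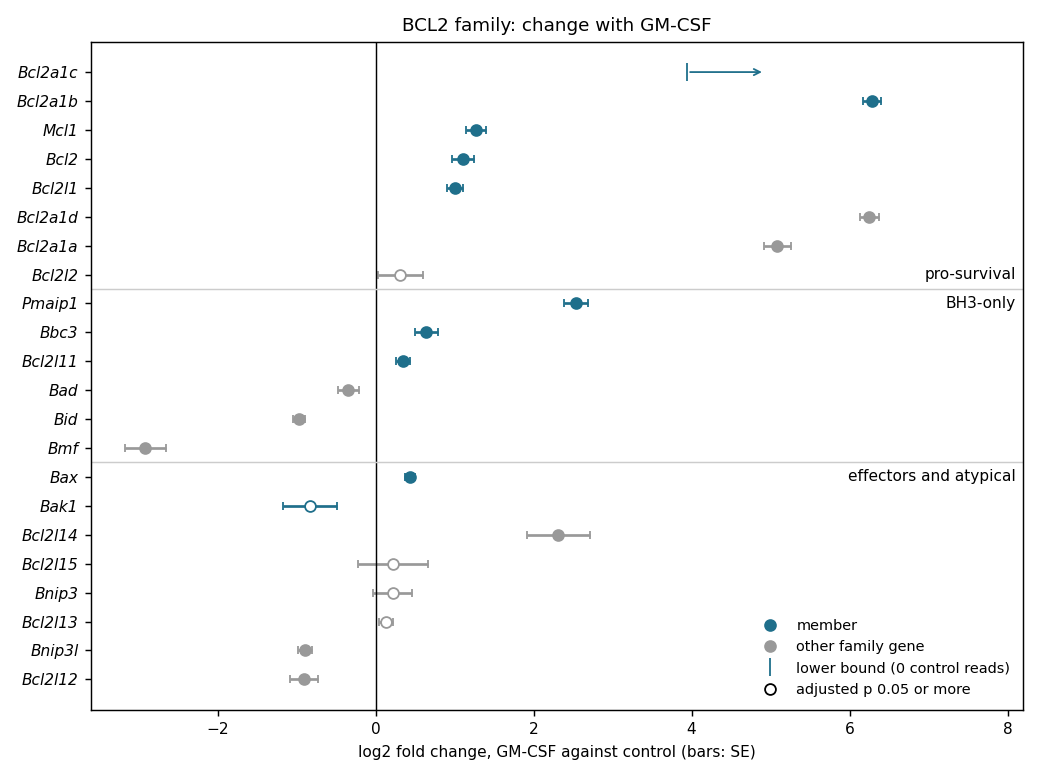
Log2 fold change of GM-CSF against control for the members (blue) and the other tested BCL2 family genes (grey), with SE from 3 libraries per group; open symbols did not pass the test. The tick with an arrow is the lower bound of Bcl2a1c against 3 control reads, and Bmf at -2.91 and Bcl2a1b at 6.28 are the extremes.

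To compare levels between genes, CPM was divided by the length of the gene's merged exons in kb. On this scale Mcl1 led in control libraries (142 ± 12.6 CPM per kb, SD, n = 3), followed by Bax (73.3 ± 3.05). All other members were under 8 in every control library. Bbc3, Bcl2l1, Pmaip1 and Bcl2l11, in this order, had means from 6.81 down to 4.93, and each overlapped with its neighbour. Bak1 (3.70 ± 0.645) and Bcl2a1b (3.39 ± 0.387) overlapped too, Bcl2 was at 0.828 ± 0.112 and Bcl2a1c at 0. In GM-CSF libraries Bcl2a1b, at 263 ± 12.9 per kb, had moved from place 8 to place 2, beside Mcl1 at 343 ± 62.8, and the ranges of these 2 overlapped. Below them came Bax (98.7 ± 1.55), Pmaip1 (32.8 ± 2.13), Bcl2l1 (13.5 ± 1.34), Bbc3 (10.5 ± 1.92), Bcl2l11 (6.25 ± 0.331), Bak1 (2.10 ± 1.08), Bcl2 (1.77 ± 0.0840) and Bcl2a1c (1.45 ± 0.357). Bcl2l1 and Bbc3 overlapped there, as did Bak1, Bcl2 and Bcl2a1c each with its neighbour. The order of genes with near levels depends on the length used, and it is given for merged exons alone. The longest transcript has 2568 bases for Bcl2l1 (4586 merged) and 5036 for Bcl2l11 (8029 merged), but 2727 for Pmaip1 (2732 merged).

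Summed over the 10 members, the level per kb went from 247 ± 8.49 to 773 ± 50.0 CPM per kb. Pro-survival members made up 62.8%, 63.8% and 58.7% of this sum in the control libraries and 78.5%, 81.3% and 81.6% in the GM-CSF libraries. The effectors went from 30.0%, 29.4% and 34.1% to 14.4%, 12.8% and 12.1%, nearly all of it Bax. BH3-only members made up 7.15%, 6.73% and 7.25% in control and 7.14%, 5.91% and 6.29% in GM-CSF libraries, with overlapping groups. The part of Mcl1 alone went from 57.3% ± 3.24 to 44.2% ± 5.52, while that of Bcl2a1b went from 1.37% ± 0.198 to 34.1% ± 3.85. These parts depend on Bcl2a1b, since all parts add up to the same whole. With the Bcl2a1 rows left out, that of Mcl1 went the other way, from 58.1% to 67.1% ± 4.67, and that of BH3-only members went from 7.14% to 9.88%. The pro-survival part then went from 61.2% to 70.1% ± 4.50 and the effector part from 31.6% to 20.0%. Within the BH3-only group Pmaip1 went from 2.29% ± 0.513 to 4.27% ± 0.568 of the sum, and Bbc3 and Bcl2l11 from 2.76% and 2.00% to 1.36% and 0.812%. These parts describe RNA and were given no test, since the members were chosen with results known. They hold for the 10 members and not for the whole family. Outside the sum are, among others, the BH3-only gene Bid, at 173 CPM in control and 88.0 CPM with GM-CSF (3550 exon bases). The pro-survival gene Bcl2a1d, at 2.19 and 165 CPM (863 exon bases), is outside it too. Parts by role would differ with such genes added.

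Opposing genes were compared as ratios in chosen pairs only, and these pairs moved unequally. Mcl1 exceeded Pmaip1 per length 20.6, 32.1 and 24.8 times in the control libraries and 7.67, 12.0 and 11.9 times in the GM-CSF libraries. Bcl2l1 exceeded Bcl2l11 by 1.28, 1.37 and 1.47 times in control and by 1.90, 2.24 and 2.38 times with GM-CSF. The first ratio was thus lower in every GM-CSF library and the second higher. The ratio of Mcl1 to Bcl2, which are both pro-survival, overlapped between groups (134 to 204 in control and 159 to 217 with GM-CSF). Other opposing pairs were not taken as ratios. On the log2 scale Mcl1 rose by 1.28, more than Bcl2l11 (0.35) and Bbc3 (0.64) and less than Pmaip1 (2.54). Beside Pmaip1, Bcl2a1b went the other way from Mcl1, and NOXA binds A1 as well. The mean of Bcl2a1b was 3.39 CPM per kb beside 5.68 for Pmaip1 in control, and 263 beside 32.8 with GM-CSF.

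**Figure D4:**
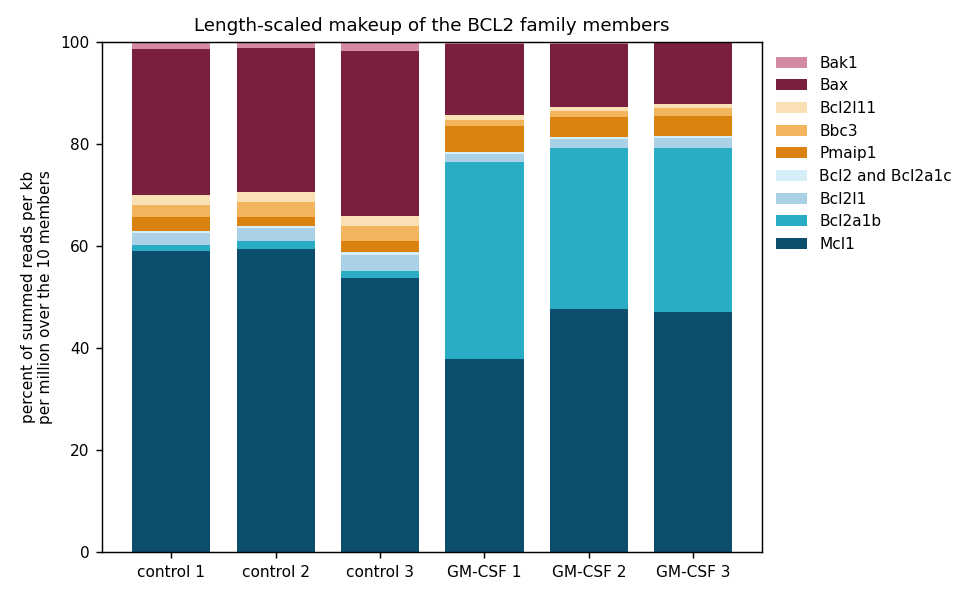
Part of each member, in percent, in the summed CPM per kb of the 10 members, 1 bar per library; blues are pro-survival, oranges BH3-only and reds effector genes. Pro-survival members reach 58.7% to 63.8% in control and 78.5% to 81.6% in GM-CSF libraries, where the bar of Bcl2a1b, near 1% in controls, is wide.

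Of all genes tested, 32.8% were higher and 31.2% lower. Among the 16 other BCL2 family genes, 12 could be tested. Of these 3 rose, 5 fell and 4 did not pass, with a median log2 fold change of 0.17. Besides Bcl2a1a and Bcl2a1d, the third that rose was the low-level gene Bcl2l14 (24 control and 95 GM-CSF reads in all; log2 fold change 2.31 ± 0.40). All 3 of the other BH3-only genes tested fell, the opposite direction to the 3 BH3-only members. Bmf, whose protein senses damage to the cytoskeleton, stood at 13.7, 14.8 and 14.2 CPM in control and 2.09, 2.64 and 1.02 CPM in GM-CSF libraries, a log2 fold change of -2.91 ± 0.26 (edgeR adjusted p = 2.87e-06). Bid, which links death receptors to mitochondria, was at 173 ± 3.04 in control and 88.0 ± 6.04 CPM with GM-CSF (log2 fold change -0.97 ± 0.07; edgeR adjusted p = 7.40e-07). Bad, which is silenced by survival kinases, fell by 0.34 ± 0.13 on the log2 scale with overlapping groups (edgeR adjusted p = 0.0394), and its call was lost when any 1 control library, or GM-CSF replicate 1 or 2, was left out (-0.38 to -0.26). Bid shares 628 of 3550 exon bases with Bcl2l13 on the opposite strand, and Bad shares 524 of 2558 with Gpr137, so that without knowing the strand setting their reads may be mixed or lost.

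Bnip3l, a receptor for the removal of mitochondria by autophagy, fell by 0.89 ± 0.09 and the atypical member Bcl2l12 by 0.91 ± 0.18 on the log2 scale. The 4 that did not pass were Bcl2l2, which encodes the pro-survival protein BCL-W (0.31 ± 0.29), Bcl2l13 (0.13 ± 0.09), Bcl2l15 (0.22 ± 0.44) and Bnip3 (0.22 ± 0.25). Bnip3 was at 47.2 CPM in GM-CSF replicate 1 and at 23.1 to 30.4 CPM in the other 5 libraries, and its value turned to -0.21 without that replicate. Bcl2l10 and Hrk had 0 reads in every library, and Bik and Bok had 22 and 13 reads in all and were not tested.

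Over all lists other than the members, 21 of 62 tested genes rose and 18 fell. These counts are near the 32.8% higher and 31.2% lower of all genes tested. Downstream of the family are the genes of the apoptosome, caspases and mitochondrial death factors. Of these, 4 of 16 rose, 5 fell and 7 did not pass (median log2 fold change -0.08), which is also near those shares. Among those that fell were Casp2 (-1.34 ± 0.11), the mitochondrial protease gene Htra2 (-0.89 ± 0.10) and the apoptosome scaffold Apaf1 (-0.49 ± 0.08). Casp6 (1.87 ± 0.11) rose, from 30.6 ± 1.30 to 112 ± 15.5 CPM, as did Diablo (1.13 ± 0.08), whose product blocks inhibitors of apoptosis, the cytochrome c gene Cycs (0.61 ± 0.17) and Vdac2 (0.29 ± 0.07), a channel gene whose product holds BAK. Casp9, the initiator caspase of the apoptosome, was at 46.3 ± 4.05 in control and 39.0 ± 6.14 CPM with GM-CSF and did not pass (-0.24; edgeR adjusted p = 0.108). It passed without GM-CSF replicate 3 (-0.37; edgeR adjusted p = 0.00673) and with upper quartile scaling (-0.36).

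Of 8 genes for inhibitors of apoptosis proteins, 5 fell and 1 rose (median -0.41), beside 31.2% lower and 32.8% higher among all genes tested. Naip2 (-1.42 ± 0.12) and Naip5 (-1.40 ± 0.10), related genes whose proteins sense bacterial ligands rather than block caspases, fell the most, with Naip6 (-0.88 ± 0.35) next. Birc5, which encodes the mitotic protein survivin, fell by 0.47 ± 0.09 and Xiap, the direct caspase inhibitor, by 0.34 ± 0.14 on the log2 scale, and Birc3, an inhibitor in TNF receptor signalling, rose by 0.22 ± 0.08. The call of Xiap was lost when any 1 control library, or GM-CSF replicate 2 or 3, was left out (-0.41 to -0.24). That of Birc3 was lost with upper quartile scaling (0.10) and when control library 1 or 3, or GM-CSF library 1 or 2, was left out (0.18 to 0.21). Naip6, whose groups overlapped, lost its call when library 2 or 3 of either group was left out (-0.98 to -0.66), with limma-voom (-0.81), with library size alone (-0.89) and with a replicate block (-0.82; edgeR adjusted p = 0.0775).

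In the death receptor pathway, 5 of 10 genes rose and 2 fell (median 0.43), beside 32.8% and 31.2% of all genes tested. The receptor gene Fas rose from 34.2 ± 2.91 to 76.4 ± 7.75 CPM, the initiator Casp8 by 0.73 ± 0.08, its inhibitor Cflar by 1.34 ± 0.10 and the necroptosis kinase gene Ripk3 by 1.81 ± 0.11 on the log2 scale. Tnfrsf10b rose from 13 to 40 reads in all (1.96 ± 0.61), a call that ended without GM-CSF replicate 1 (1.73) or control replicate 1 (1.63) or 3 (1.69). The adaptor gene Fadd (-0.45 ± 0.16) fell, a call that ended without GM-CSF replicate 3 (-0.31) or control replicate 1 (-0.42) or 3 (-0.44). Mlkl, whose product ruptures the membrane when RIPK3 activates it, fell by 1.11 ± 0.09 on the log2 scale, the opposite direction to Ripk3.

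Of 17 genes for regulators and turnover factors of BCL2 proteins, 16 were tested, 8 rose and 1 fell (median 0.35). The shares of all genes tested were 32.8% higher and 31.2% lower. The p53 target Cdkn1a, which encodes the cell cycle inhibitor p21, rose to 1774 ± 192 CPM from 41.3 ± 2.34 CPM (5.43 ± 0.11 on the log2 scale). Mdm2 (1.23 ± 0.08), whose protein degrades p53, and Trp53 itself (0.80 ± 0.08) rose. Pim1, a survival kinase gene whose protein phosphorylates BAD, rose by 2.93 ± 0.12 on the log2 scale. The ubiquitin ligase gene Huwe1 (0.55 ± 0.11), whose protein removes MCL1, rose as well, as did March5 (0.25 ± 0.08), Bag1 (0.28 ± 0.07) and Foxo3 (0.70 ± 0.20), and Foxo1 fell (-0.59 ± 0.15). The calls of March5 and Bag1 ended with upper quartile scaling (0.14 and 0.17), and that of March5 also without GM-CSF replicate 1 (0.20) or control replicate 3 (0.23).

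**Figure D5:**
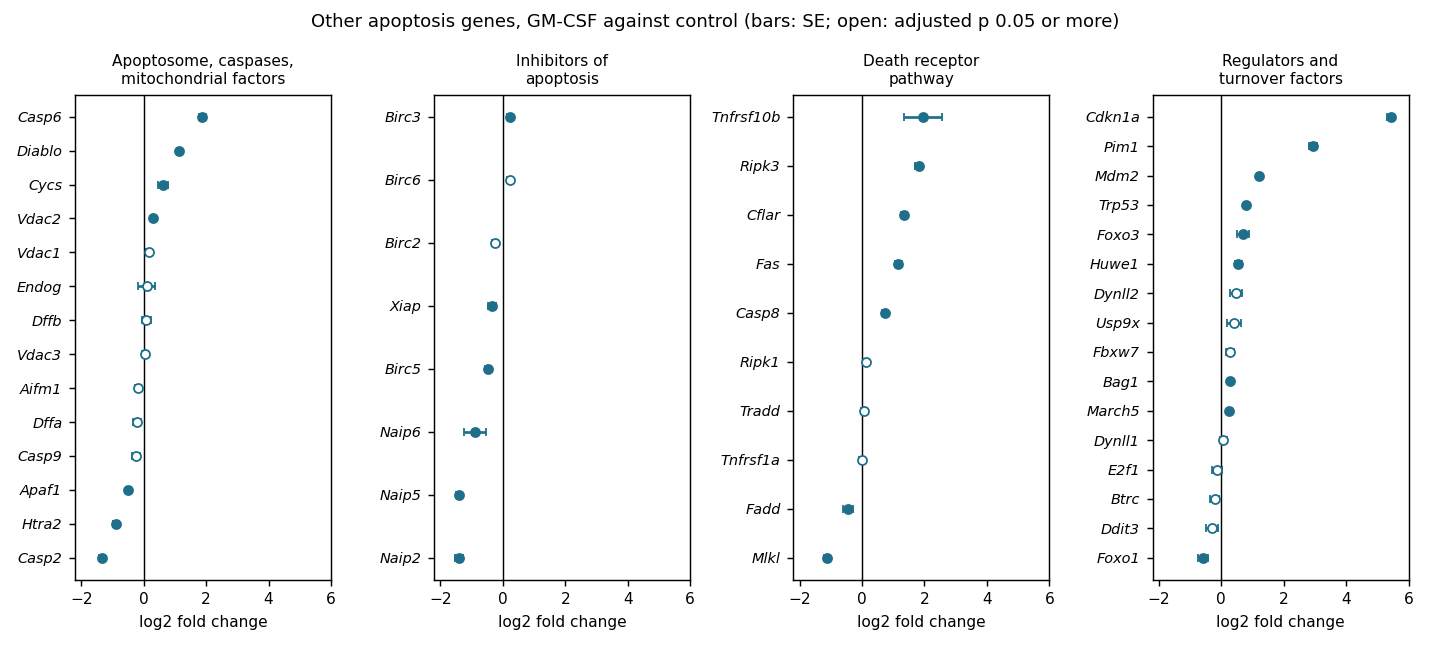
Log2 fold change of GM-CSF against control with SE for tested genes of 4 further apoptosis lists; filled symbols passed the test. Cdkn1a at 5.43 is the highest value and Naip2 at -1.42 the lowest.

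The genes most like Bcl2a1b over the 6 libraries, by Pearson correlation of log2 CPM, were C3ar1, the receptor for complement C3a (r = 0.9999; 4.40 to 258 CPM), the kinase gene Nek6 (0.9999; 5.30 to 240 CPM) and the survival kinase gene Pim3 (0.9998; 22.8 to 415 CPM). For Bcl2a1c, which has few reads, they were Tgif2 (0.9992), Cnot7 (0.9988) and Tob2 (0.9988). The points share libraries and the 2 groups, so that 677 of 11721 other genes reached 0.99 with Bcl2a1b and 240 with Bcl2a1c.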

How the data were processed

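Polyadenylated RNA, purified with a Norgen kit and DNase per the labels' protocols, was sequenced as paired reads. The authors' deposited file gives unnormalized read counts by gene symbol, and its columns were matched to samples by title. Tools listed in the submitters' processing notes, with no role stated, are STAR 2.5.2a, HTSeq 0.6.1p1, Trim Galore 0.4.4 and edgeR, and the build is mm10. Annotation and strand setting are not given there. Between 69.4% and 71.2% of each library's reads were in gene rows, and 18.0% to 19.6% had no unique place; rows that name no gene were left out.

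The main test was edgeR 4.0.16 under R 4.3.3: TMM scaling, filterByExpr (minimum count 10, total 15), and a two-sided quasi-likelihood F test with group as the only term, adjusted by Benjamini-Hochberg over 11731 genes. The SE is the absolute log2 fold change over the square root of F. CPM uses the total of gene counts, and lengths and positions are from GENCODE M21. The procedure was tested on simulated data. Alternatives were other scalings, filters and tests (limma-voom from limma 3.58.1, DESeq2 1.42.0), a replicate block and leaving out each library.

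Members and lists were chosen with earlier results of these data known. Named were all members, the other tested family genes, the 3 largest called changes of each list and the 3 genes most like each of the 2 members with the largest change; other list genes were named after their values were seen. Some list genes are counted but not reported by name here.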

Additional observations from a re-analysis of the deposited data

How the results depend on the processing

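All 9 members called higher kept their direction and call in the alternatives in which they could be tested, and Bak1 kept its direction in all 17. Ranges were 6.17 to 6.34 for Bcl2a1b, 1.16 to 1.41 for Mcl1, 0.99 to 1.20 for Bcl2, 0.89 to 1.07 for Bcl2l1, 2.40 to 2.76 for Pmaip1, 0.49 to 0.72 for Bbc3, 0.23 to 0.40 for Bcl2l11 and 0.32 to 0.46 for Bax. Bcl2a1c could not be tested in 4 of them, where it was removed by the filter or summed, so that 8 or 9 members were called higher. With a change of at least 2-fold required, 6 were higher (11.9% of all genes tested were), counting Bcl2a1c, which had to differ. Bcl2l1 reached 2-fold only just and not under every alternative, and Bcl2 fell short of it with upper quartile scaling (0.99). Without the Bcl2a1 rows, 7 of the remaining 8 were called higher. Both counts were chosen after seeing the data. Bak1 was called lower, making the number of members lower 1 in place of 0, with upper quartile scaling, no low-count filter, DESeq2, limma-voom, a replicate block and the 10 most abundant genes removed, and without GM-CSF replicate 1 or 2; its adjusted p ran from 0.0130 to 0.154 and the cause was not tested. Leaving out 1 library gave 0 to 1 members lower. Upper quartile scaling moved the median of all genes to -0.11. Over the libraries left out in turn, Bcl2l15 ran from -0.19 (without GM-CSF replicate 2) to 0.44 and Bnip3 from -0.21 (without GM-CSF replicate 1) to 0.41.

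The labels give both groups replicate numbers 1 to 3 without saying that they pair. Deviations of same-numbered libraries correlated at 0.0727, 0.00984 and 0.00380, so no pairing was assumed. With the replicate block, 9 members were called higher and 1 lower (Bak1, -0.91), and 7493 genes were called in all in place of 7511; 22 other apoptosis genes were higher and 18 lower.

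Taking the longest transcript as length, the parts in control and GM-CSF libraries were 54.9% and 76.0% for pro-survival members, 37.7% and 17.3% for effectors, 7.45% for BH3-only members in control and 49.1% for Mcl1 in control. With the Bcl2a1 rows left out, an alternative that removes a large part of the sum, the GM-CSF parts were 70.1% for pro-survival, 9.88% for BH3-only and 20.0% for effector members and 67.1% for Mcl1. Few reads limit Bcl2a1c (36 in all), Tnfrsf10b (13 in control) and Bcl2l14 (24 in control).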
